A study of Macaca mulatta with 9 samples.

Results

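Genes for collagens, laminins, nidogens and integrins were examined in rhesus macaque small antral follicles (SAFs), a growing stage of ovarian follicle with a cavity of fluid. Members were all probe sets of the array whose annotation gives 1 symbol of these families, by the patterns COL, LAMA, LAMB, LAMC, ITGA and ITGB followed by a number, with ITGAV, ITGAL, ITGAM, ITGAX, NID1 and NID2 added. The rule found 135 probe sets of 66 genes, among 24956 non-control probe sets with 1 symbol, which stood for 14132 genes. It took in 35 collagen genes with 60 probe sets, 9 laminin genes with 20, the nidogen gene NID1 with 2 and 18 integrin chain genes with 48. It also took in 5 probe sets of ITGB1BP1, ITGB1BP2 and ITGB3BP, whose products bind integrins or carry that name but are not integrin chains. The signal was high enough for a test in 78 probe sets of 48 genes, and the other 57 probe sets, which cover 18 genes entirely, were not tested.

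There were 9 arrays, 3 for each group, all from young adult females sampled early in the follicular phase. The WSD+T group ate a Western-style diet (WSD) and had chronically raised androgen, the WSD group ate that diet alone, and control females ate a standard diet. No array holds raised androgen on the standard diet, so the hormone can be compared only on the diet. Each sample was the whole content of SAFs pooled by female and ovary, 3.7 ± 0.3 per ovary as the labels give it without naming the error, with stroma cleaned off by needle. Wall cells, granulosa cells and the oocyte with its cumulus were therefore measured as 1 mixture, and in such bulk samples fewer cells of a type and less RNA per cell cannot be told apart. The RNA was amplified from the 3' end before labelling.

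A follicle's granulosa cells rest on a basal lamina that separates them from the vascular theca. Laminins, each assembled from an alpha, a beta and a gamma chain, and network-forming type IV collagen make up such sheets, and nidogen and perlecan link them. The theca and stroma around it hold fibril-forming collagens, of which types I and III are the most familiar, with type VI and others bound to the fibrils. Integrins are pairs of an alpha and a beta chain in the cell membrane that bind these proteins and connect them to the actin cytoskeleton. A growing follicle has to enlarge its basal lamina and remodel the matrix around it.

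Values are linear signal intensities, set by the authors to 1 common scale per array. Fold changes are on the scale of log2(signal + 16), which understates changes of low signals, and each is the first group named minus the second. Adjusted p values come from 1 limma model over all 9 arrays and all 26383 probe sets tested, and a probe set is called at an adjusted p under 0.05. All groups share 1 estimate of the spread, so a WSD array that stands apart also widens the intervals of WSD+T vs control. Different probe sets bind with different strength, so levels are compared between samples and not between genes. WSD vs control and WSD+T vs control share the control arrays, and WSD+T vs WSD shares an arm with each, so their values stand side by side without a test of their overlap.

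The arrays of the WSD group stood apart from each other. Within that group, WSD replicate 2 was the highest array for 44 of the 78 tested members (56.4%, against 37.9% of all tested probe sets), and WSD replicate 3 was the lowest for 38 of them (48.7%, against 38.4%). The median within-group SD of the members on the log2 scale was 0.15 in WSD+T, 0.50 in WSD and 0.25 in control follicles, and over all tested probe sets it was 0.14, 0.31 and 0.22. The marker sums of some other cells moved with this spread. The summed signal of 8 myeloid markers was 13397, 12092 and 12834 in WSD+T follicles, 12524, 18562 and 831 in WSD follicles and 7515, 1579.8 and 2103 in control follicles. The sum of 7 endothelial markers was 2132, 1842 and 2067 in WSD+T follicles, 1641, 3644 and 493 in WSD follicles and 1595, 1105 and 1016 in control follicles. Both were lowest in WSD replicate 3 and highest in WSD replicate 2. The sum of 8 granulosa markers was 5558, 6030.1 and 5498 in WSD+T follicles, 7800.4, 4144 and 7894 in WSD follicles and 9129.95, 11026 and 11854 in control follicles, higher in every control array than in any other array. The sum of 6 stroma fibroblast markers was 4900, 5980 and 5005 in WSD+T follicles and 2539, 4647 and 3129 in WSD follicles. In control follicles it was 5181, 4042 and 3889, and WSD replicate 1 was its lowest array. The ovarian surface epithelium sum was highest in WSD replicate 3 (4607). In the myeloid, endothelial and granulosa lists every marker on the array exceeded the test's minimum signal on at least 1 array. The stroma marker MGP and the epithelium marker KRT7 did not. The part of any of these cells in the values below was not tested.

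Few members passed the test in any comparison. In WSD vs control, 14.5% of all tested probe sets were called, 4.78% higher and 9.68% lower in WSD. Of the 78 members, 10 were called (12.8%), 5 probe sets of 3 genes higher and 5 of 5 genes lower, so the members' share lay near the background. In WSD+T vs control, 1.97% of all tested probe sets were called, 0.542% higher and 1.43% lower in WSD+T, and 2 of 78 members (2.56%), 1 in each direction. In WSD+T vs WSD, 2.99% of all were called, 2.04% higher and 0.948% lower in WSD+T, and 1 member (1.28%), which was higher. The median log2 fold change of the members was 0.06 in WSD+T vs control, -0.09 in WSD vs control and 0.15 in WSD+T vs WSD, beside -0.01, -0.08 and 0.09 over all tested probe sets. When 1 array was left out, 17 members were called in WSD vs control without WSD replicate 3, 8 without WSD replicate 1 or 2, 6 without control replicate 3, 4 without control replicate 1 or any 1 WSD+T array, and 2 without control replicate 2. For WSD+T vs control these counts were 10 and 7 without WSD replicates 2 and 3, 1 without WSD replicate 1 and 0 without any 1 of the other 6 arrays. In WSD vs control, 22.1% of members were called without WSD replicate 3, beside 25.1% of all tested probe sets. Without control replicate 2 these shares were 2.6% and 6.58%, and in the other fits 5.06% to 10.3% and 7.76% to 13.6%. In WSD+T vs control they were 12.8% and 6.05% without WSD replicate 2, 9.09% and 6.74% without WSD replicate 3, and 1.25% and 1.54% without WSD replicate 1. Of all tested probe sets, 0 were called in that comparison without WSD+T replicate 1 or 3, and 0.466% without WSD+T replicate 2. Without control replicates 1, 2 and 3 the share of all was 0.849%, 0.368% and 0.394%. After cyclic loess scaling, 6 members were called higher and 3 lower in WSD vs control, and 50.3% rather than 66.9% of all calls in that comparison were lower.

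**Figure D1:**
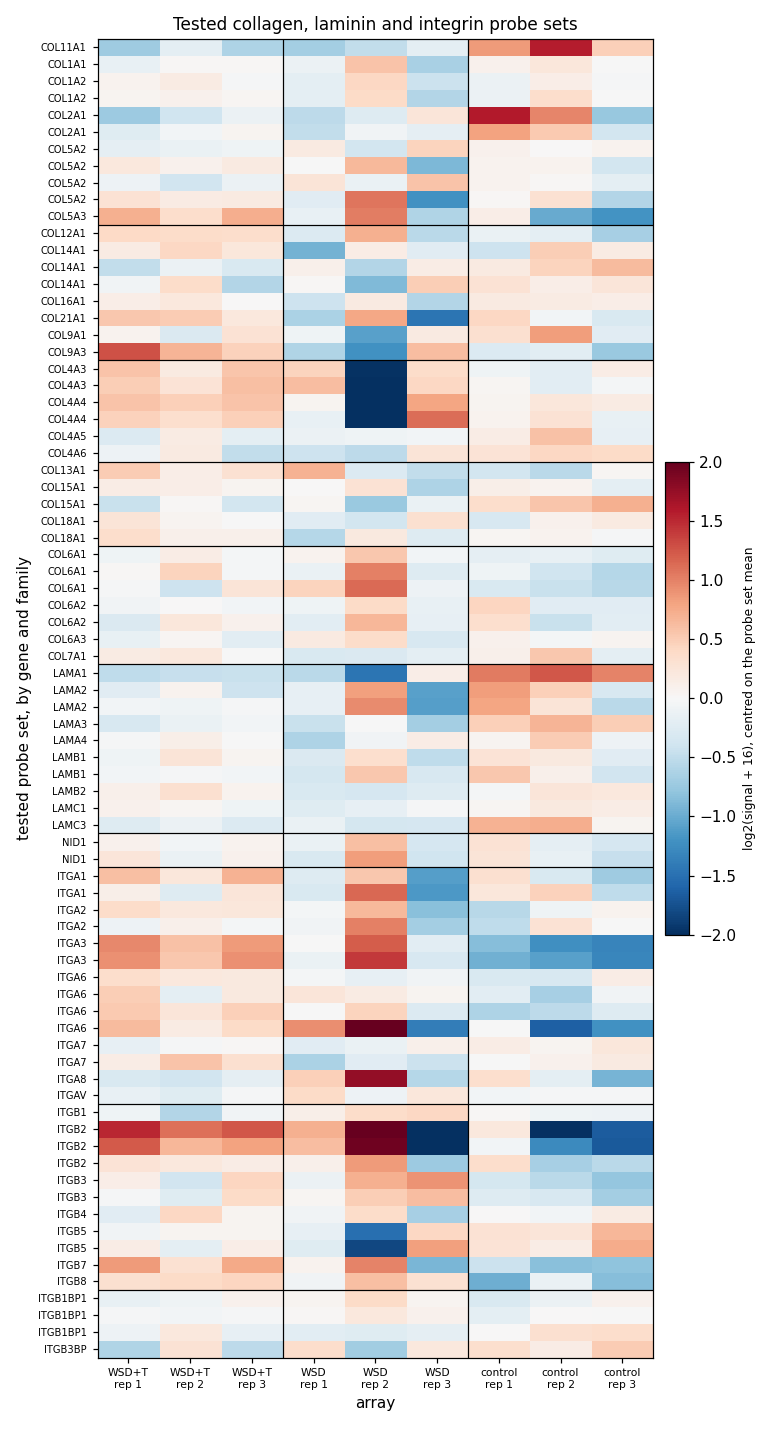
Log2(signal + 16) of all 78 tested member probe sets on the 9 arrays, less the probe set's mean over all 9, with WSD+T arrays at the left, then WSD, then control; colours are limited to differences of 2 in each direction. WSD replicate 2 departs from the other arrays in many probe sets, whereas the 3 WSD+T arrays look alike; within WSD, replicate 2 was the highest array for 44 of the 78.

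The 3 laminin chains with a call in WSD vs control were all lower in WSD follicles: LAMA1, LAMA3 and LAMC3. LAMA1, an alpha chain of epithelial and embryonic basement membranes, had signals of 163, 169.7 and 172 in WSD+T follicles, 161, 77.2 and 263 in WSD follicles and 508, 588 and 495 in control follicles. Every array on the Western-style diet, with or without androgen, lay below every control array, and WSD replicate 2 was the lowest of all. The log2 fold change of LAMA1 was -1.56 ± 0.33 (SE, adjusted p = 0.0540) in WSD+T vs control, which missed the threshold. In WSD vs control it was -1.71 ± 0.33 (SE, adjusted p = 0.0141), and in WSD+T vs WSD 0.15 (95% confidence interval -0.61 to 0.91, adjusted p = 0.851). LAMA1 stayed below the threshold in WSD vs control when any of 8 arrays was left out, and missed it without control replicate 2 (adjusted p = 0.0514).

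LAMA3, the alpha chain of the laminin that anchors epithelial cells and a ligand of the integrin chain ITGA3, showed 22.9, 28.5 and 31.1 in WSD+T follicles, 19.8, 32.6 and 14.3 in WSD follicles and 51.8, 61.7 and 52.6 in control follicles. These low signals were again below all 3 control values on all 6 arrays of the Western-style diet. LAMA3's log2 fold change was -0.72 ± 0.19 (SE, adjusted p = 0.0955) in WSD+T vs control and -0.93 ± 0.19 (SE, adjusted p = 0.0162) in WSD vs control. The call in WSD vs control was lost without control replicate 2 (adjusted p = 0.0574) and held without each of the other 8. LAMC3, a gamma chain of more restricted distribution than LAMC1, measured 62.2, 69.9 and 61.3 in WSD+T follicles, 69.1, 57.5 and 58.5 in WSD follicles and 136, 138 and 81.7 in control follicles. Control replicate 3 was nearer to the other groups than to the other control arrays, although all control values were above those of WSD+T and WSD, which overlapped. For LAMC3 the log2 fold change was -0.71 ± 0.19 (SE, adjusted p = 0.101) in WSD+T vs control and -0.77 ± 0.19 (SE, adjusted p = 0.0322) in WSD vs control. That call held when WSD replicate 3 or control replicate 3 was left out (adjusted p = 0.0424 and 0.0153) and was lost without any 1 of the other 7 arrays (adjusted p 0.0538 to 0.102).

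All 10 tested laminin probe sets, of 8 genes, had a log2 fold change below 0 in WSD vs control, with 3 called and a median of -0.39. Over all tested probe sets 57.2% were below 0 and 9.68% were called lower, with a median of -0.08. The laminin median was -0.37, -0.25 and -0.32 after quantile normalization, median centring and cyclic loess, with 3, 2 and 2 calls. Without WSD replicate 2 it was -0.60, with 2 calls, and without WSD replicate 3 it was -0.39, with 3 calls and 8 of 10 below 0. Of all 26383 tested probe sets, 1967, 1286 and 1737 were called lower after the 3 scalings. Without WSD replicates 2 and 3, 2320 and 3695 of all were called lower. The laminin median in WSD+T vs control was -0.18, with 9 of 10 below 0 and 0 called by limma, 3 of them at an unadjusted p under 0.05. Of all 26383 tested probe sets, 5066 had an unadjusted p under 0.05 in that comparison. The laminin probe sets were measured on the same arrays and some share a gene, so they are not independent of each other. The granulosa marker sum was also lower on all 6 arrays of the Western-style diet than on the control arrays, with 2 of the 8 markers called lower and 1 higher in WSD vs control.

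The remaining laminin chains and NID1 did not pass the test. LAMC1, the gamma chain of most laminins, had 2999, 2892 and 2647 in WSD+T follicles, 2375, 2504 and 2784 in WSD follicles and 2903, 3209 and 3136 in control follicles. The WSD arrays were all below the control arrays, with log2 fold changes of -0.12 (95% confidence interval -0.41 to 0.18, adjusted p = 0.674) in WSD+T vs control and -0.27 (95% confidence interval -0.56 to 0.02, adjusted p = 0.188) in WSD vs control. LAMB2, a beta chain found in mature and vascular basement membranes, had 384, 449 and 378 in WSD+T follicles, 287, 281 and 296 in WSD follicles and 346, 427 and 416 in control follicles. Its WSD values were close together and below all values of both other groups, while WSD+T and control values overlapped. LAMB2 had log2 fold changes of 0.03 (95% confidence interval -0.29 to 0.34, adjusted p = 0.944) in WSD+T vs control, -0.43 (95% confidence interval -0.75 to -0.12, adjusted p = 0.0690) in WSD vs control and 0.46 (95% confidence interval 0.15 to 0.77, adjusted p = 0.105) in WSD+T vs WSD. With a stricter filter on low signals, LAMB2 was called lower by limma in WSD vs control (-0.43, adjusted p = 0.0439). LAMB1, the other common beta chain, was read on a probe set that may also bind related transcripts. LAMB1 had 1215, 1551 and 1349 in WSD+T follicles, 1057, 1650.1 and 907 in WSD follicles and 1570.1, 1480.05 and 1111 in control follicles, and all groups overlapped. Its log2 fold change was -0.01 (95% confidence interval -0.55 to 0.54, adjusted p = 0.991) in WSD+T vs control and -0.23 (95% confidence interval -0.78 to 0.31, adjusted p = 0.541) in WSD vs control.

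LAMA2, the alpha chain of muscle and nerve basement membranes, was measured at 429.6, 534 and 376 in WSD+T, 449, 909.9 and 229 in WSD and 917, 714 and 402 in control follicles. The WSD arrays spread from the lowest of all arrays to just under the highest. LAMA4, an alpha chain of vascular basement membranes, had 809, 894 and 821 in WSD+T follicles, 535, 783 and 914 in WSD follicles and 859, 1181 and 772 in control follicles, and its groups overlapped. The log2 fold changes in WSD vs control were -0.48 (95% confidence interval -1.54 to 0.58, adjusted p = 0.515) for LAMA2 and -0.34 (95% confidence interval -0.85 to 0.18, adjusted p = 0.342) for LAMA4. NID1, the nidogen that bridges laminin and type IV collagen, gave 1489.97, 1349 and 1481 in WSD+T follicles, 1276, 2150.1 and 1113 in WSD follicles and 1714, 1242 and 1107 in control follicles. WSD replicate 2 was the highest NID1 array, the other WSD arrays were below all WSD+T values, and the control values overlapped with those of both other groups. NID1 had log2 fold changes of 0.11 (95% confidence interval -0.48 to 0.70, adjusted p = 0.862) in WSD+T vs control and 0.12 (95% confidence interval -0.47 to 0.71, adjusted p = 0.777) in WSD vs control, and its second probe set gave 0.18 and 0.16.

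**Figure D2:**
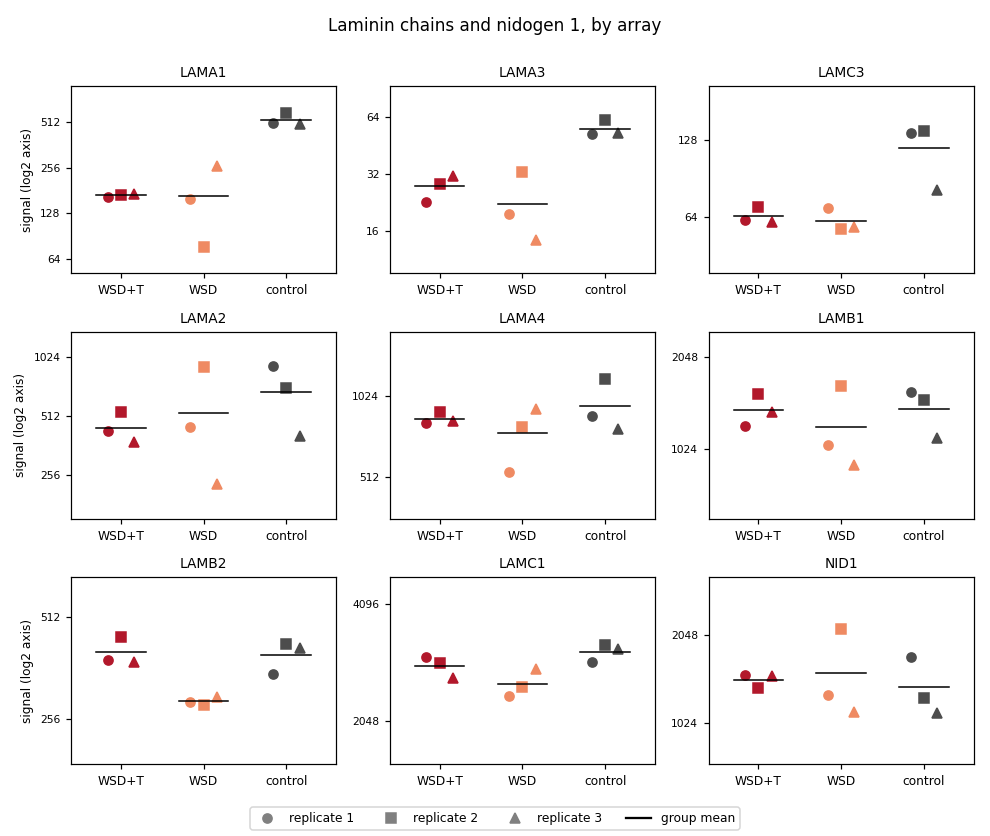
Signal intensity per array (log2 axis) of LAMA1, LAMA3, LAMC3, LAMA2, LAMA4, LAMB1, LAMB2, LAMC1 and NID1, 1 panel each, with the WSD+T, WSD and control groups from left to right; points are arrays and black lines are group means (n = 3). For LAMA1, LAMA3 and LAMC3 all 6 points on the Western-style diet lie below the control points, and for LAMA2, LAMB1 and NID1 the WSD points are the most spread.

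No probe set of a network-forming collagen was called in any comparison by limma, with 1 of 6 at an unadjusted p under 0.05 in WSD vs control and 0 in the comparisons with WSD+T. Of all 26383 tested probe sets, 8213 had an unadjusted p under 0.05 in WSD vs control, 5066 in WSD+T vs control and 5523 in WSD+T vs WSD. COL4A3, COL4A4 and COL4A5 encode the type IV chains known from the kidney's filtration barrier, and the genes COL4A3 and COL4A4 are neighbours in the genome. COL4A4 had 1072, 999 and 1066 in WSD+T follicles, 747, 81.3 and 1255 in WSD follicles and 748, 839.9 and 800.3 in control follicles. WSD replicate 2 was far below every other array, and the WSD+T values were above all control values. The log2 fold change of COL4A4 was 0.39 (95% confidence interval -1.38 to 2.16, adjusted p = 0.836) in WSD+T vs control and -0.83 (95% confidence interval -2.60 to 0.94, adjusted p = 0.495) in WSD vs control, an interval that spans large changes either way. Without WSD replicate 2 the value in WSD vs control turned to 0.28 (adjusted p = 0.420). The value in WSD+T vs control stayed at 0.39, with an SE of 0.19 instead of 0.78 (adjusted p = 0.246). COL4A3 had 452, 340.5 and 446 in WSD+T follicles, 413, 64.2 and 390.2 in WSD follicles and 282, 255 and 334 in control follicles, with the same array far below the rest. Without it, the second COL4A3 probe set was called higher in WSD (log2 fold change 0.58, adjusted p = 0.0497), and the first was not (0.45, adjusted p = 0.133). The summed granulosa markers were also lowest on this array and the myeloid and endothelial markers highest.

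COL4A5 had 416, 568 and 441 in WSD+T follicles, 467, 477 and 485 in WSD follicles and 566, 765 and 449 in control follicles, with a log2 fold change of -0.28 (95% confidence interval -0.74 to 0.19, adjusted p = 0.389) in WSD vs control. COL4A6 had 54.4, 69.4 and 37.4 in WSD+T follicles, 40.1, 36.6 and 74.3 in WSD follicles and 75.1, 84.0 and 82.3 in control follicles, and its value there was -0.58 (95% confidence interval -1.13 to -0.03, adjusted p = 0.141). All WSD+T and WSD values of COL4A6 were below the control values, and it was called in WSD vs control when WSD replicate 3 was left out (-0.83, adjusted p = 0.0222). For COL4A5 the groups overlapped. The chains COL4A1 and COL4A2, which form most type IV collagen elsewhere in the body, had no probe set among the members and could not be analysed here.

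COL15A1 and COL18A1 are multiplexins, collagens of basement membrane zones whose ends are cut off as antiangiogenic fragments. The probe set of COL15A1 with the lower signal was called lower in WSD. It had 253, 359.7 and 269.9 in WSD+T follicles, 361, 204 and 319 in WSD follicles and 456, 526 and 589 in control follicles, and all values of the Western-style diet were below the control values. This probe set gave a log2 fold change of -0.81 ± 0.23 (SE, adjusted p = 0.116) in WSD+T vs control and -0.82 ± 0.23 (SE, adjusted p = 0.0459) in WSD vs control. The call held without WSD replicate 1 or 3 (adjusted p = 0.0453 and 0.0386) and was lost without any 1 of the other 7 arrays (adjusted p 0.0567 to 0.131). The brighter COL15A1 probe set had 2785, 2747 and 2616 in WSD+T follicles, 2516, 3074 and 1639.9 in WSD follicles and 2729, 2642 and 2202 in control follicles, with overlapping groups and log2 fold changes of 0.11 (95% confidence interval -0.39 to 0.62, adjusted p = 0.836) and -0.11 (95% confidence interval -0.61 to 0.40, adjusted p = 0.776) against control. The 2 probe sets thus disagreed, and whether they measure different transcripts was not tested. COL18A1 had 184, 159 and 151 in WSD+T follicles, 128, 115 and 194 in WSD follicles and 119, 161 and 175 in control follicles, with 0.12 (95% confidence interval -0.37 to 0.61, adjusted p = 0.814) in WSD+T vs control and -0.07 (95% confidence interval -0.56 to 0.42, adjusted p = 0.849) in WSD vs control.

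Of the fibril-forming collagens, COL11A1 was lower in follicles of both diet groups. It encodes a chain of type XI collagen, a minor fibril collagen best known from cartilage that limits fibril width. Its tested probe set may also bind related transcripts. This probe set had 19.7, 35.0 and 22.2 in WSD+T follicles, 20.7, 25.6 and 35.4 in WSD follicles and 89.5, 158 and 65.7 in control follicles. Every WSD+T and WSD value was below every control value, and control replicate 2 was the highest array. COL11A1 gave a log2 fold change of -1.48 ± 0.28 (SE, adjusted p = 0.0418) in WSD+T vs control, -1.42 ± 0.28 (SE, adjusted p = 0.0152) in WSD vs control and -0.06 (95% confidence interval -0.71 to 0.59, adjusted p = 0.933) in WSD+T vs WSD. In WSD vs control COL11A1 was called without any 1 of the 9 arrays (highest adjusted p = 0.0469), the only member result for which that held. The call was lost with array weights per group, where LAMA1, LAMA3 and the brighter ITGA3 probe set kept theirs. It was also lost in a fit to the WSD and control arrays alone, which called 0 members. The call in WSD+T vs control held without WSD replicate 2 or 3 (adjusted p = 0.0315 and 0.0263) and was lost without any 1 of the others (adjusted p 0.0553 to 0.197). Without WSD+T replicate 1 or 3, 0 of all tested probe sets were called in WSD+T vs control. A second COL11A1 probe set, too low for the test, had 10.4, 13.95 and 5.19 in WSD+T follicles, 7.32, 4.94 and 11.6 in WSD follicles and 28.7, 48.1 and 22.9 in control follicles, and its control values were again above all others, while WSD+T and WSD values overlapped.

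The abundant interstitial collagens did not pass the test. COL1A1, which encodes the main chain of type I collagen, had 1957, 2223 and 2218 in WSD+T follicles, 2003, 3261 and 1382 in WSD follicles and 2303, 2563 and 2161 in control follicles. The WSD arrays lay on both sides of all other arrays. COL1A1 gave a log2 fold change of -0.13 (95% confidence interval -0.75 to 0.49, adjusted p = 0.840) in WSD+T vs control and -0.16 (95% confidence interval -0.79 to 0.46, adjusted p = 0.715) in WSD vs control. COL1A2, its partner chain, had 2008, 2165 and 1895 in WSD+T follicles, 1679.6, 2564 and 1417 in WSD follicles and 1779, 2112 and 1890.4 in control follicles, with log2 fold changes of 0.07 (95% confidence interval -0.41 to 0.56, adjusted p = 0.897) and -0.07 (95% confidence interval -0.56 to 0.41, adjusted p = 0.844) against control. In both genes WSD replicate 2 was highest and WSD replicate 3 lowest of all 9 arrays.

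Type VI collagen forms beaded microfibrils around cells, and COL6A1 and COL6A3 encode chains of it. COL6A1 had 2089, 2440.1 and 2140.3 in WSD+T follicles, 2312, 3230.1 and 2119.5 in WSD follicles and 1945, 1999 and 1862 in control follicles. COL6A1 log2 fold changes were 0.20 (95% confidence interval -0.20 to 0.59, adjusted p = 0.584) in WSD+T vs control and 0.37 (95% confidence interval -0.02 to 0.77, adjusted p = 0.184) in WSD vs control. All 6 arrays of the Western-style diet were above the control arrays for this probe set, and WSD replicate 2 was the highest. A dimmer COL6A1 probe set was called higher in WSD without WSD replicate 3 (1.22, adjusted p = 0.0139). It was also called higher in WSD vs control after quantile normalization (1.06, adjusted p = 0.0397) and cyclic loess (1.07, adjusted p = 0.0470). COL6A3 had 1967, 2237 and 1865 in WSD+T follicles, 2474, 2795 and 1738 in WSD follicles and 2295, 2105 and 2254 in control follicles, with overlapping groups and 0.05 (95% confidence interval -0.38 to 0.47, adjusted p = 0.887) in WSD vs control. COL12A1, a collagen bound to the surface of type I fibrils, had 958, 939 and 926 in WSD+T follicles, 595, 1193 and 492 in WSD follicles and 657, 629 and 450.1 in control follicles. Its WSD+T values were close together and above all control values, with a log2 fold change of 0.71 (95% confidence interval 0.02 to 1.40, adjusted p = 0.252) in WSD+T vs control, against 0.30 (95% confidence interval -0.39 to 0.99, adjusted p = 0.536) in WSD vs control. COL9A3, a chain of the fibril-bound type IX collagen of cartilage, had 77.9, 46.1 and 37.4 in WSD+T follicles, 9.46, 0.786 and 43.8 in WSD follicles and 15.9, 17.6 and 7.29 in control follicles and 1.21 (95% confidence interval 0.23 to 2.20, adjusted p = 0.183) in WSD+T vs control.

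COL5A2, a chain of type V collagen that starts type I fibrils, had 4 tested probe sets that formed 2 patterns among the WSD arrays. The brightest had 1589, 1645 and 1695 in WSD+T follicles, 2044, 1390.3 and 2462 in WSD follicles and 1909.8, 1816 and 1895 in control follicles. The next had 1598, 1464 and 1574 in WSD+T follicles, 1381, 2187 and 734 in WSD follicles and 1446, 1457 and 1073 in control follicles. WSD replicate 2 was the lowest array of its group and replicate 3 the highest on the first of these, and the order was turned on the second. The other probe sets of COL5A2 divided in the same way, 1 with each pattern. In WSD vs control the 4 log2 fold changes were 0.03, -0.01, 0.27 and -0.04, and none was called (adjusted p from 0.371 to 0.992). Of the 22 member genes with 2 or more tested probe sets, the direction agreed within the gene for 20 in WSD vs control, with COL5A2 and ITGB1BP1 as exceptions. It agreed for 14 in WSD+T vs control and for 13 in WSD+T vs WSD.

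**Figure D3:**
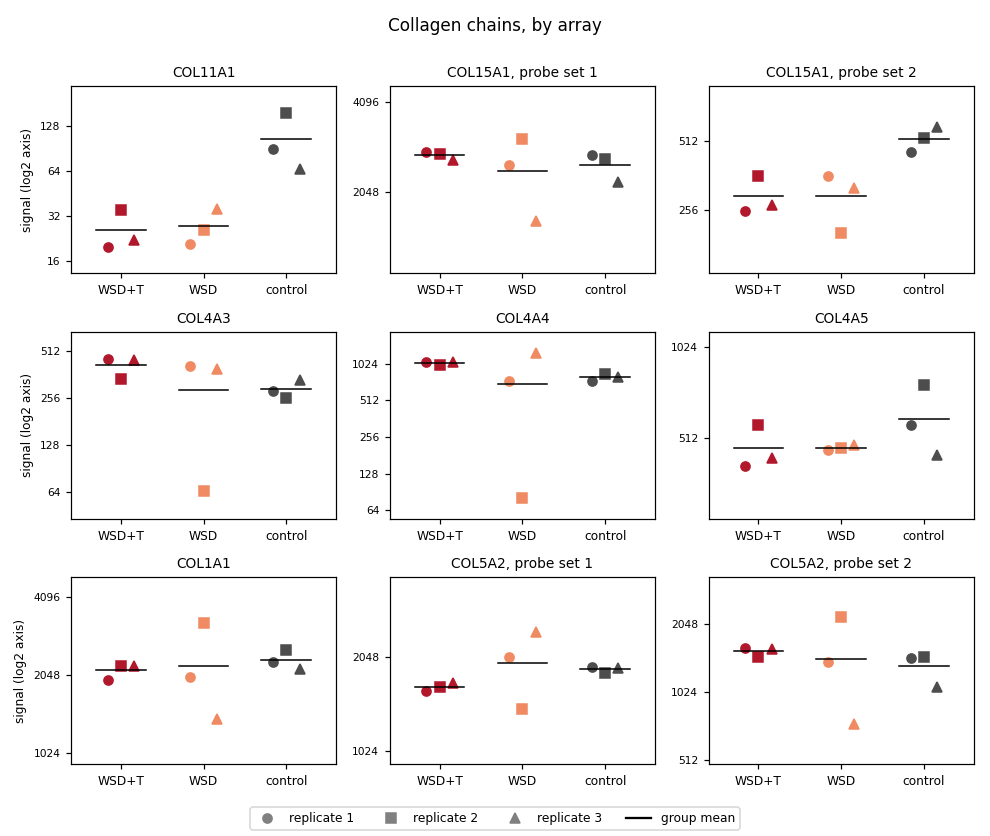
Signal intensity per array (log2 axis) of collagen probe sets, 1 panel each, with the WSD+T, WSD and control groups from left to right; points are arrays and black lines are group means (n = 3). COL11A1 and the dimmer COL15A1 probe set show all control points above the others, the COL4A3 and COL4A4 panels show WSD replicate 2 far below the rest, and the 2 COL5A2 panels show the WSD arrays in opposite orders.

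Among the integrin chains, 25 probe sets were tested, and the 5 called in WSD vs control were all higher in WSD, beside 4.78% of all tested probe sets called higher and 9.68% lower. ITGA3, which pairs with ITGB1 as a receptor for laminins, had 2 tested probe sets. The brighter had 349, 265 and 324 in WSD+T follicles, 171, 418 and 147 in WSD follicles and 88.1, 64.4 and 58.9 in control follicles. The dimmer had 136, 102 and 136 in WSD+T follicles, 58.1, 200.2 and 49.2 in WSD follicles and 25.7, 22.3 and 16.9 in control follicles. On both, every array of the Western-style diet was above every control array, and WSD replicate 2 was the highest of all. The brighter probe set gave a log2 fold change of 1.93 ± 0.34 (SE, adjusted p = 0.0339) in WSD+T vs control and 1.47 ± 0.34 (SE, adjusted p = 0.0255) in WSD vs control. The dimmer one gave 1.90 ± 0.40 (SE, adjusted p = 0.0530) and 1.44 ± 0.40 (SE, adjusted p = 0.0463) in the same comparisons. The difference between WSD+T and WSD was 0.46 (95% confidence interval -0.32 to 1.25, adjusted p = 0.50) on the brighter probe set. Without WSD replicate 2, both probe sets were called higher in WSD+T than in WSD (0.90, adjusted p = 0.0411, and 1.01, adjusted p = 0.0275).

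In WSD vs control the brighter ITGA3 probe set lost its call without control replicate 2 or 3 (adjusted p = 0.0776 and 0.0813) and kept it without each of the other 7 arrays. The dimmer one kept it without WSD replicate 2 or 3 (adjusted p = 0.0201 and 0.0171) and lost it without any 1 of the others (adjusted p 0.0569 to 0.129). In WSD+T vs control the brighter ITGA3 probe set was called without any 1 WSD array and lost its call without any 1 WSD+T or control array (adjusted p 0.0638 to 0.172). In the fits without WSD+T replicate 1 or 3, 0 of all tested probe sets were called in that comparison. The order of the arrays on both probe sets was that of the endothelial sum except for WSD replicate 3, and it resembled that of the myeloid sum, with WSD replicate 2 first and WSD+T replicate 1 second in each. In WSD replicate 3 both sums were the lowest of all arrays, and ITGA3 was above all control arrays.

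The other laminin-binding alpha chains were ITGA6 and ITGA7. ITGA6, a receptor chain of granulosa and many epithelial cells, had 2395, 2190.3 and 2158 in WSD+T follicles, 1829.5, 1674 and 1786 in WSD follicles and 1525, 1501 and 2085 in control follicles on its brightest probe set. All WSD+T values were above the WSD and control values, and WSD and control overlapped. This gave a log2 fold change of 0.41 (95% confidence interval 0.05 to 0.77, adjusted p = 0.211) in WSD+T vs control and 0.06 (95% confidence interval -0.29 to 0.42, adjusted p = 0.810) in WSD vs control. The other 3 ITGA6 probe sets gave log2 fold changes between 0.47 and 1.34 in WSD+T vs control and between 0.46 and 1.51 in WSD vs control, with no call. Without WSD replicate 3, 2 of them were called higher in WSD (2.48, adjusted p = 0.0126, and 0.69, adjusted p = 0.0358). The second of these was also called higher in WSD+T vs control without WSD replicate 2 or 3 (0.88, adjusted p = 0.0226 and 0.0293).

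ITGA7, best known as the laminin receptor of muscle, gave the only member call between WSD+T and WSD. Its dimmer tested probe set had 35.0, 52.7 and 41.5 in WSD+T follicles, 13.6, 23.4 and 18.4 in WSD follicles and 29.8, 33.2 and 36.0 in control follicles. The WSD values were below all others, and the WSD+T and control values overlapped. On this probe set the log2 fold change was 0.78 ± 0.17 (SE, adjusted p = 0.0472) in WSD+T vs WSD, 0.26 (95% confidence interval -0.11 to 0.64, adjusted p = 0.424) in WSD+T vs control and -0.51 (95% confidence interval -0.89 to -0.14, adjusted p = 0.0707) in WSD vs control. Without WSD replicate 2 it was called in WSD+T vs WSD (adjusted p = 0.0331), and without any 1 of the other 8 arrays it was not (adjusted p 0.0529 to 0.184). Of all tested probe sets, 0 were called in that comparison without WSD+T replicate 1 or 2, and 2 without WSD+T replicate 3. The brighter ITGA7 probe set had 105, 118 and 122 in WSD+T follicles, 99.7, 108 and 129 in WSD follicles and 134, 124 and 143 in control follicles, with all WSD+T values below the control values, WSD values overlapping both, and 0.03 (95% confidence interval -0.28 to 0.35, adjusted p = 0.925) in WSD+T vs WSD. Summed smooth muscle and pericyte markers were 4396, 4748 and 4351 in WSD+T follicles, 3321, 3721 and 4076 in WSD follicles and 3255, 3138 and 2490.3 in control follicles, highest in WSD+T.

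The integrin beta chains ITGB3 and ITGB8, which pair with ITGAV to bind RGD motifs in matrix proteins, were both higher in WSD. ITGB3, part of the vitronectin receptor, had 92.4, 60.0 and 118 in WSD+T follicles, 75.8, 146 and 169.8 in WSD follicles and 61.6, 52.1 and 41.8 in control follicles on its brighter probe set. The WSD values were all above the control values, and WSD+T replicate 2 lay within the control range. ITGB3 gave a log2 fold change of 1.06 ± 0.30 (SE, adjusted p = 0.0481) in WSD vs control and 0.62 (95% confidence interval -0.07 to 1.3, adjusted p = 0.301) in WSD+T vs control. A dimmer probe set that may bind related transcripts gave 0.81 ± 0.22 (SE, adjusted p = 0.0442) and 0.46 (95% confidence interval -0.05 to 0.97, adjusted p = 0.299). Both calls held only without WSD replicate 1 (adjusted p = 0.0231 and 0.0389), and were lost without any 1 of the other arrays, with adjusted p up to 0.138 and 0.130 without control replicate 3.

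ITGB8, whose pair with ITGAV releases active TGF-beta, had 115, 121 and 125 in WSD+T follicles, 84.3, 143 and 114 in WSD follicles and 37.6, 79.8 and 42.5 in control follicles. All diet values were above the control values. ITGB8 gave a log2 fold change of 1.03 ± 0.25 (SE, adjusted p = 0.0752) in WSD+T vs control and 0.93 ± 0.25 (SE, adjusted p = 0.0395) in WSD vs control. The second of these was called without WSD replicate 1, WSD replicate 3 or control replicate 2 (adjusted p = 0.0405, 0.0494 and 0.0243) and not without any 1 of the other 6 arrays (adjusted p 0.0653 to 0.118).

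The alpha chain ITGAV itself had 949, 885 and 1038 in WSD+T follicles, 1377, 982 and 1240.3 in WSD follicles and 1015, 1034 and 1037 in control follicles, with -0.10 (95% confidence interval -0.45 to 0.25, adjusted p = 0.764) in WSD+T vs control and 0.21 (95% confidence interval -0.14 to 0.56, adjusted p = 0.392) in WSD vs control. ITGB5, another partner of ITGAV, had 1213, 1324 and 1313 in WSD+T follicles, 1134, 436 and 1701 in WSD follicles and 1559.6, 1501 and 2014 in control follicles. WSD replicate 2 was far below every other array, and the WSD+T values were below the control values. ITGB5 had log2 fold changes of -0.38 (95% confidence interval -1.32 to 0.56, adjusted p = 0.662) in WSD+T vs control and -0.81 (95% confidence interval -1.75 to 0.13, adjusted p = 0.216) in WSD vs control. Without WSD replicate 3 both ITGB5 probe sets were called lower in WSD (-1.23, adjusted p = 0.0364, and -1.41, adjusted p = 0.0420), and without WSD replicate 2 neither was (-0.27 and -0.09). ITGB1, the beta chain shared by most matrix receptors, was read on a probe set that may also bind related transcripts. ITGB1 had 507, 354 and 509 in WSD+T follicles, 587, 698 and 719 in WSD follicles and 547, 504 and 503 in control follicles. All WSD values were above those of both other groups, with 0.35 (95% confidence interval -0.04 to 0.74, adjusted p = 0.197) in WSD vs control and -0.55 (95% confidence interval -0.94 to -0.16, adjusted p = 0.118) in WSD+T vs WSD.

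The order of the arrays for the leukocyte integrin chains was close to that of the myeloid and endothelial marker sums. ITGB2, the beta chain of the integrins of white blood cells, had 712, 536 and 594 in WSD+T follicles, 404, 1127 and 15.7 in WSD follicles and 282, 37.6 and 64.9 in control follicles. WSD replicate 3 was the lowest array and WSD replicate 2 the highest, and the WSD+T values were above all control values. ITGB2 had log2 fold changes of 2.52 (95% confidence interval -0.14 to 5.18, adjusted p = 0.283) in WSD+T vs control and 1.19 (95% confidence interval -1.47 to 3.85, adjusted p = 0.520) in WSD vs control. ITGB7, a beta chain of lymphocytes and mast cells, had 86.6, 54.3 and 80.2 in WSD+T follicles, 43.5, 97.1 and 14.04 in WSD follicles and 26.4, 15.98 and 16.5 in control follicles, and the 9 arrays came in the same order as for ITGB2. Its log2 fold change was 1.33 (95% confidence interval 0.38 to 2.27, adjusted p = 0.142) in WSD+T vs control and 0.73 (95% confidence interval -0.22 to 1.68, adjusted p = 0.265) in WSD vs control. The summed myeloid markers put the arrays in that order too, except that WSD replicate 1 came before WSD+T replicate 2. The summed endothelial markers did so except that control replicate 2 came before control replicate 3, and they had the same order as the second ITGB2 probe set. On the third ITGB2 probe set control replicate 1 was second. The sum of 4 lymphocyte markers, of which 1 was tested, came in another order. It put WSD+T replicates 1 and 3 before WSD replicate 2, and control replicate 1 before WSD replicate 1. WSD replicate 3 was its lowest array too.

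These values turned on single WSD arrays. Without WSD replicate 3, ITGB2 was called higher in WSD on 2 of 3 probe sets (2.67, adjusted p = 0.0274, and 2.29, adjusted p = 0.0181), and so was ITGB7 (1.22, adjusted p = 0.0225). Without WSD replicate 2, the same values were 0.08 (adjusted p = 0.967), 0.19 (adjusted p = 0.899) and 0.26 (adjusted p = 0.615). ITGB7 was called higher in WSD+T vs control without WSD replicate 2 or 3 (adjusted p = 0.0351 and 0.0311), where its log2 fold change of 1.33 did not move. The myeloid alpha chain ITGAM had 1 probe set, which was too low for the test, and ITGAL and ITGAX had no probe set among the members.

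**Figure D4:**
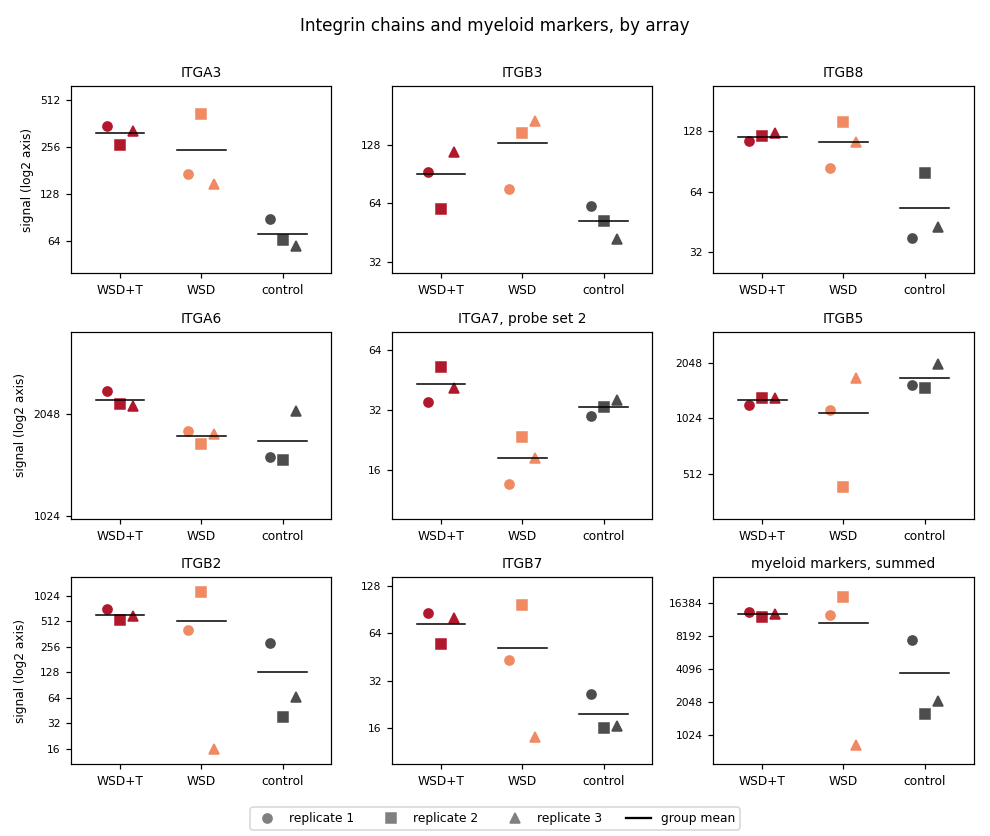
Signal intensity per array (log2 axis) of ITGA3, ITGB3, ITGB8, ITGA6, ITGA7, ITGB5, ITGB2 and ITGB7, with the summed signal of 8 myeloid marker genes in the last panel, and with the WSD+T, WSD and control groups from left to right; points are arrays and black lines are group means (n = 3). ITGB2 and ITGB7 show the same order of arrays as each other, nearly that of the myeloid sum, whereas ITGA3 stays above the control points also in WSD replicate 3.

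Some further members were called with 1 array left out and not in the 9-array fit. Both tested probe sets of COL2A1, the main fibril collagen of cartilage, were called lower in WSD vs control without control replicate 3 (-1.47, adjusted p = 0.0336, and -0.91, adjusted p = 0.0345). Without WSD replicate 2, the fibril-associated collagen COL16A1 was called lower in WSD vs control (-0.65, adjusted p = 0.0214) and higher in WSD+T vs WSD (0.61, adjusted p = 0.0421), COL21A1 was called higher in WSD+T vs WSD (1.46, adjusted p = 0.0361), and the dimmer ITGA7 probe set was called lower in WSD vs control (-0.62, adjusted p = 0.0486).

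Members caught by name only did not pass the test. ITGB3BP, a protein of the kinetochore named for binding the ITGB3 tail, had 816, 1519.8 and 862 in WSD+T follicles, 1591, 763 and 1440.01 in WSD follicles and 1569, 1387 and 1772 in control follicles and -0.38 (95% confidence interval -1.11 to 0.36, adjusted p = 0.455) in WSD vs control. The 3 probe sets of ITGB1BP1, which binds the ITGB1 tail and holds back its activation, gave 0.28, 0.17 and -0.44 there (adjusted p from 0.0946 to 0.377).

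The number of calls in WSD+T vs control differed between fits. In the 9-array fit, where all groups share 1 estimate of the spread, 2 members were called. In a fit to the 6 WSD+T and control arrays alone, where the filter on low signals was also set anew, 14 of 79 tested members were called (17.7%), 9 higher and 5 lower, and 12.3% of all tested probe sets. The log2 fold changes are the same in both fits. The lower ones in the 6-array fit were LAMA1 (adjusted p = 0.00533), LAMA3 (0.0195), COL15A1 on its dimmer probe set (0.0303), COL11A1 (0.0251) and COL14A1, a fibril-bound collagen (0.0380). The higher ones were 2 probe sets of ITGA3 (0.00557 and 0.00533) and of ITGB2 (0.0312 and 0.0387), and 1 each of ITGB7 (0.0120), ITGB8 (0.0328), ITGA6 (0.0164), COL12A1 (0.0381) and COL9A3 (0.0270). In the fit without WSD replicate 2, which called 10 members in WSD+T vs control, the calls were LAMA1, LAMA3, COL11A1, COL14A1 and the dimmer COL15A1 probe set, all lower, and both ITGA3 probe sets, ITGA6, ITGB7 and ITGB8, all higher. Without WSD replicate 3 they were the same but for COL14A1, COL15A1 and ITGB8. The same kind of fit to the WSD and control arrays called 0 of 78 members and 3.46% of all tested probe sets. At an unadjusted limma p under 0.05 it had 15 of the 78 members and 6266 of all 26383 tested probe sets. WSD+T replicates 1 and 3 were closer to each other than any other pair of replicates, with a median absolute difference of 0.109 on the log2 scale against 0.176 for the next pair. No values were identical between them, and nothing in the labels says that they share an origin.

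**Figure D5:**
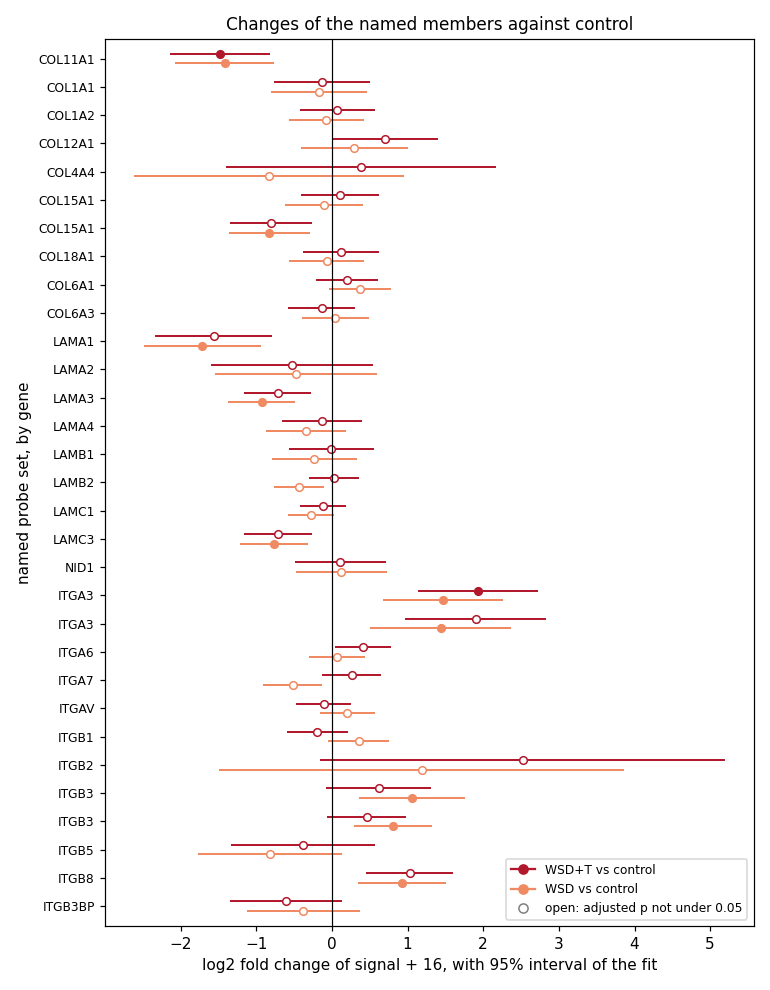
Log2 fold changes on the log2(signal + 16) scale with 95% confidence intervals for the 31 named member probe sets. WSD+T vs control and WSD vs control are drawn on the same axis and told apart by colour. Filled points passed the adjusted p threshold and open points did not. In WSD vs control the filled points of LAMA1, LAMA3, LAMC3, COL11A1 and COL15A1 lie below 0 and those of ITGA3, ITGB3 and ITGB8 above it, and the intervals of ITGB2 and COL4A4 are the widest.

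Genes that work with these families were read from 3 lists. Over all tested probe sets, 1.97% were called in WSD+T vs control, 14.5% in WSD vs control and 2.99% in WSD+T vs WSD. Of these 26383 probe sets, 5066, 8213 and 5523 had an unadjusted limma p under 0.05, in the same order. Of 12 tested partners of basement membranes and matrix, 1 was called, HSPG2, which encodes the basement membrane proteoglycan perlecan. HSPG2 had 875, 975 and 861 in WSD+T follicles, 646, 721 and 655 in WSD follicles and 1647, 1858 and 2189 in control follicles. All diet values were below the control values, with the WSD values lowest. HSPG2's log2 fold change was -1.05 ± 0.15 (SE, adjusted p = 0.0178) in WSD+T vs control, -1.46 ± 0.15 (SE, adjusted p = 0.00296) in WSD vs control and 0.41 (95% confidence interval 0.08 to 0.75, adjusted p = 0.154) in WSD+T vs WSD. The call in WSD vs control held without any 1 array (highest adjusted p = 0.0134). The call in WSD+T vs control was lost without any 1 WSD+T array, control replicate 2 or control replicate 3 (adjusted p 0.0508 to 0.124). Without WSD+T replicate 1 or 3, 0 of all tested probe sets were called there. The median log2 fold change of the 12 was 0.26 in WSD+T vs control and 0.05 in WSD vs control, beside -0.01 and -0.08 over all tested probe sets. None of the 18 tested genes for collagen processing was called by limma in any comparison, with 2 in WSD+T vs control, 1 in WSD vs control and 0 in WSD+T vs WSD at an unadjusted p under 0.05. They include the prolyl and lysyl hydroxylases, the collagen chaperone SERPINH1 and the crosslinking lysyl oxidases.

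Of 15 tested genes for the machinery that links integrins to actin, 4 were higher and 1 lower in WSD vs control, beside 4.78% and 9.68% of all tested probe sets. Their median log2 fold change was 0.34, beside -0.08 over all. PXN, which encodes the adaptor paxillin of focal adhesions, was read on a probe set that may also bind related transcripts. PXN had 702, 569.9 and 745 in WSD+T follicles, 1000.4, 1329 and 854 in WSD follicles and 484, 311 and 337 in control follicles. The WSD values were the highest, and WSD+T values were also above all control values. PXN gave a log2 fold change of 0.82 ± 0.22 (SE, adjusted p = 0.104) in WSD+T vs control and 1.45 ± 0.22 (SE, adjusted p = 0.00700) in WSD vs control, and in WSD vs control it was called without any 1 array (highest adjusted p = 0.0277). The others were ZYX, the focal adhesion protein zyxin (0.77 ± 0.19 (SE, adjusted p = 0.0289)), CD151, a tetraspanin that binds laminin receptors (0.73 ± 0.20 (SE, adjusted p = 0.0401)), FERMT2, the integrin activator kindlin (0.48 ± 0.12 (SE, adjusted p = 0.0312)) and TLN2, a talin, which was lower (-0.86 ± 0.22 (SE, adjusted p = 0.0342)). Each of these 4 lost its call without at least 5 of the 9 arrays, among them WSD replicate 1. In WSD+T vs control and in WSD+T vs WSD none of the 15 was called by limma, with 4 and 2 at an unadjusted p under 0.05. Of all 26383 tested probe sets, 5066 and 5523 reached that unadjusted p. The list was chosen with earlier results of these data known, so its counts are a description.

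Members below the test's minimum signal of 21.2 on average included COL3A1, a main fibril collagen, with 1 probe set, and the platelet chain ITGA2B. The highest group mean among the 57 untested probe sets was 33.2, for the second COL11A1 probe set in control follicles. No level is drawn from these low signals. COL5A1, LAMA5, NID2 and ITGA5 had no probe set among the members and could not be analysed here.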

How the data were processed

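Gene expression was measured on 1-colour arrays in 9 samples, 3 per group, with groups and biological replicate numbers taken from the labels. The authors deposited 1 signal intensity per probe set and array on a linear scale, and the submitters' processing notes name MAS5 for it with no version. Leaving out the outer 2% at each end, every array averaged 200.01, so the deposited intensity values had been brought to 1 trimmed mean. MAS5's other settings are not stated, detection calls were not used here, and no genome build is named in those notes. Median signals per array ran from 15.9 to 23.7. The number of arrays limits the precision.

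Symbols came from the array's annotation. Of the 135 member probe sets, 128 had an Entrez ID in a RefSeq gene table of a rhesus macaque assembly, and all 128 had the same symbol there. Log2(signal + 16) was fitted with limma 3.58.1 (lmFit and eBayes, 2-sided) in R 4.3.3, with a mean per group (degrees of freedom: 6 residual, 2.69 prior). Of 52865 probe sets, 99 controls were left out, and those with a mean of at least the median of the others (5.22, a signal of 21.2) were tested. P-values were adjusted by Benjamini-Hochberg over 26383 probe sets in each of 3 comparisons.

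Members and lists were chosen with earlier results of these data known. Named with values were all called members, a set of familiar genes by their brightest tested probe set, and the brightest of each family. COL2A1, COL4A3, COL4A5, COL4A6, COL5A2, COL9A3, COL14A1, COL16A1, COL21A1, ITGB7 and second probe sets of named genes were singled out after their values were seen. Marker and partner genes were read by their brightest probe set. Other settings covered the pseudocount, filter, scaling, samples fitted, replicate block, array weights, variance moderation and each array left out. The model was tested on simulated data. Python 3.11.15 with matplotlib 3.10.9 drew the figures.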

Additional observations from a re-analysis of the deposited data

How the results depend on the processing

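Called members in WSD vs control numbered 10, and 3 with a stricter filter (the 75th percentile), 6 after median centring, 0 with the compared groups only, 4 with the replicate block, 3 with array weights per group and 4 with WSD+T replicates 1 and 3 averaged. Leaving out 1 array gave 2 to 17. All called probe sets there numbered 3817, and in the same order 2398 (stricter filter), 913 (compared groups only), 2220 (replicate block), 1367 (array weights) and 2544 (averaged), with 1735 to 6628 when 1 array was left out. The stricter filter tested only 40 members and 13192 probe sets in all. It called 7.5% of those members and 18.2% of those probe sets, beside 12.8% and 14.5% with the usual filter. Called members in WSD+T vs control numbered 2, and 1 with no filter, a stricter filter or median centring, 14 with the compared groups only or array weights, and 0 with the replicate block or the averaged arrays, with 0 to 10 when 1 array was left out. All called probe sets there numbered 520, and 3245 with the compared groups only, 3 with the replicate block, 3267 with array weights and 0 with the averaged arrays, with 0 to 1777 when 1 array was left out. With no filter, a stricter filter and median centring, 0.741%, 2.5% and 1.28% of the tested members were called in WSD+T vs control. The shares of all tested probe sets were 0.786%, 2.71% and 1.49%. The 1 called member in WSD+T vs WSD passed with a pseudocount of 1, and the count was 0 under each of the 11 other settings, with 0 to 5 when 1 array was left out. All called probe sets there numbered 789, and 300 after median centring, 9 with the compared groups only, 1 with the replicate block, 186 with array weights and 0 with the averaged arrays, with 0 to 1548 when 1 array was left out. The cause of these moves was not tested, beyond the fewer arrays or probe sets that some settings use.

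After quantile normalization, median centring and cyclic loess, 1501, 1459 and 1713 probe sets were higher and 1967, 1286 and 1737 lower in WSD vs control, beside 1262 and 2555 without further scaling. In WSD+T vs WSD 303, 120 and 287 were higher and 324, 180 and 381 lower, beside 539 and 250. Median centring moved the median of all probe sets in WSD vs control to 0.05, against -0.08 without it. Residuals of arrays with the same replicate number correlated between -0.302 and 0.19, so the numbers share no evident pairing, and the replicate block is given as counts only. No called value of the 31 named probe sets turned its direction under any setting. Signals near the test's minimum give folds that depend on the pseudocount.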
